A study of Homo sapiens with 6 samples.

Results

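Genes of iron handling were compared between A549 and H23, 2 established human cell lines labelled as lung cancer lines. The 10 genes, FTL, FTH1, TFRC, SLC40A1, SLC11A2, HMOX1, ACO1, IREB2, NCOA4 and STEAP3, were taken by name from the 27968 genes of the tables, and all 10 were found. A549 was represented by 3 independent untreated cultures in DMEM and H23 by 3 in RPM1640 (as the labels spell it), both with fetal bovine serum. RNA was taken near confluence for total RNA libraries described as without ribosomal RNA, though some ribosomal RNA remained, as given below. Each group is a single line, so it stands for that line and not for a class of tumours. Medium and line changed together, and their parts in any difference cannot be told apart.

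Iron enters most cells bound to transferrin, is reduced and carried out of the endosome, and is then used, stored in ferritin or exported through ferroportin. A pair of iron regulatory proteins, encoded by ACO1 and IREB2, ties these steps together by binding a hairpin called the iron-responsive element when iron is scarce. Binding in the 5′ untranslated region (UTR) blocks translation, as in the ferritin mRNAs, and binding in the 3′ UTR protects the mRNA from decay, as in TFRC. Ferritin output is therefore set largely at translation, which counts of RNA do not measure.

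Sites matching the common form of the element were looked up in GENCODE release 29 transcripts (GRCh38) of the 10 genes, because the regulatory proteins bind such elements. The search ran on the transcript strand for the 6-base loop CAGTGN, with A, C or T as its last base, closed by 5 base pairs (G-U allowed) and preceded by an unpaired C. It found 1 site each in the 5′ UTR of FTL, FTH1 and SLC40A1 and 4 in the 3′ UTR of TFRC. SLC11A2 held 1 site in its 3′ UTR with 4 of the 5 pairs. In the sites below, capitals mark the unpaired C and the loop, with T for U.
FTL, chr19:48965335-48965364, plus strand: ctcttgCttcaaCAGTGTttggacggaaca
FTH1, chr11:61967573-61967602, minus strand: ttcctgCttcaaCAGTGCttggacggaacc
SLC40A1, chr2:189580660-189580689, minus strand: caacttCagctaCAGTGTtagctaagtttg
TFRC site 1, chr3:196050978-196051007, minus strand: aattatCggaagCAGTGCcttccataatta
TFRC site 2, chr3:196050574-196050603, minus strand: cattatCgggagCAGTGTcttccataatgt
TFRC site 3, chr3:196050509-196050538, minus strand: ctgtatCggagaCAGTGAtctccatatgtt
TFRC site 4, chr3:196050462-196050491, minus strand: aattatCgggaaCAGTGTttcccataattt
SLC11A2, chr12:50988268-50988297, minus strand: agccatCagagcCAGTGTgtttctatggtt

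The motif with 5 pairs was present in 0.532% of 83129 protein-coding transcripts. In the first 250 bases of a coding transcript it occurred in 30 of 19640 genes, 0.153%, FTL, FTH1 and SLC40A1 among them. TFRC was the single gene with 4 or more such motifs in a transcript. The looser form with 4 pairs, met by SLC11A2, is far less selective and occurred in 4.74% of coding transcripts, among them transcripts of ACO1 and IREB2. A match is a description of the letters and does not show binding. An element with another loop, or without the unpaired C, would be missed by this search.

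Library totals ran from 23399562 to 25348083 estimated counts in A549 and from 29395795 to 42421642 in H23, and every one of the 10 genes had at least 120 counts in each library. H23 replicate 1 stood apart from the other H23 libraries, with a chi-square per gene of 101 and 129 against them, where the other H23 pair gave 5.30 and the A549 pairs 3.56 to 3.74. Calls among the 10 genes that change without H23 replicate 1 are given both ways, as is the total of other iron genes. Counts of the single lists of other iron genes are given on all libraries only. All 6 epithelial markers looked up were above 1 TPM (deposited transcript level, corrected for length) in every library. KRT8 and KRT18 had 1320 TPM or more in both lines, KRT7 had 2416 to 2625 TPM in A549 and 1.11 to 1.36 TPM in H23, KRT19 had 48.9 to 52.4 TPM in A549 and 4.48 to 6.35 TPM in H23, and EPCAM and CDH1 had 2.23 to 3.4 TPM in A549 and 5.75 to 15.4 TPM in H23. The distal lung factor NKX2-1 was listed at 0 TPM in A549 and at 1.95 to 2.61 TPM in H23. Another distal lung marker, NAPSA, had 0.57 to 0.79 TPM in A549 and 0.93 to 1.46 TPM in H23. Of the others among the 5 distal lung markers looked up, SFTPB went the other way, with 0.05 to 0.07 TPM in A549 and at most 0.02 TPM in H23. SFTPC had 0.14 TPM in A549 replicate 3 and 0 TPM elsewhere, and SFTPA1 had 0 TPM in every library. The 6 markers of red cell precursors summed to at most 0.2 TPM in A549 and 0.63 TPM in H23. Of 5 markers of macrophages and other blood cells, CD14 had 2.38 to 4.94 TPM and CD68 3.36 to 8.39 TPM over all libraries. The others, PTPRC, CD163 and CD3E, had at most 0.01 TPM.

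Of the 10 genes, 7 were higher in A549, FTH1 was lower, and SLC11A2 and STEAP3 did not pass edgeR's quasi-likelihood test at an adjusted p of 0.05. The lines differed widely. Over all 15426 genes tested, 77.2% passed, 37.6% as higher in A549 and 39.6% as lower. The share of the 10 that passed, 80%, is close to that background. Their median log2 fold was 1.31, against -0.03 over all genes tested. At least 2-fold differences were called for 6 of the 10, against 50.1% of genes tested. CPM values (counts scaled by library size and TMM factors) did not overlap between the lines for any of the 10 genes, and for 82.1% of genes tested. On log2(TPM + 1) the split of calls over all genes moved from 5801 higher and 6109 lower in A549 to 3868 higher and 8334 lower, and the median fold to -0.41. Of the 10, 5 were then called higher and 1 lower. Without H23 replicate 1, 9 of the 10 passed, against 88.6% of genes tested. In RNA of whole cultures, fewer cells with a transcript and less transcript per cell cannot be told apart.

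**Figure D1:**
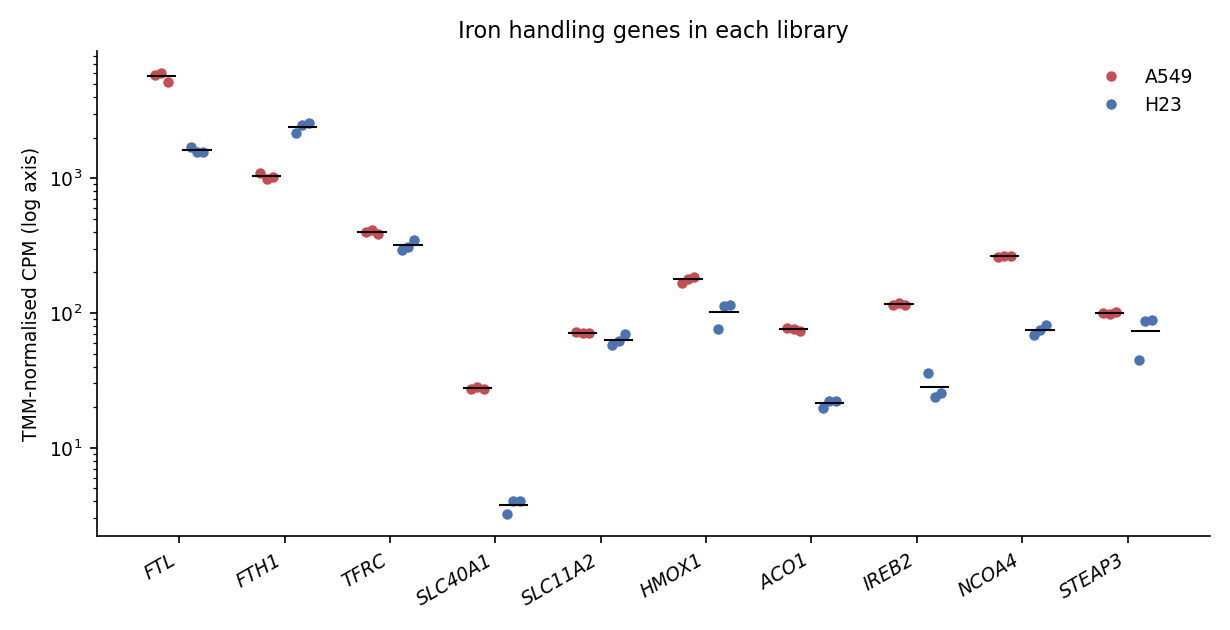
TMM-normalised CPM (log axis) of the 10 iron handling genes in each library, with A549 in red to the left of H23 in blue and black bars for the mean of 3 libraries. The A549 points lie above the H23 points for every gene but FTH1, with the narrowest gaps for SLC11A2 and STEAP3, which did not pass the test, and for TFRC, whose direction flips on log2(TPM + 1) and with GC and length trends removed.

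Transcripts of the 2 ferritin chains went opposite ways. FTL encodes the light chain, which helps to form the iron core inside the ferritin shell. It stood at 5858, 6038 and 5120 CPM in A549 replicates 1, 2 and 3, against 1692, 1559 and 1564 CPM in H23 replicates 1, 2 and 3. The lowest A549 library lay far above the highest H23 library. The log2 fold of A549 over H23 was 1.82 ± 0.09 (approximate SE, edgeR adjusted p = 4.28e-06), and it was 1.29 to 2.59 over the alternative settings.

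FTH1 encodes the heavy chain, which carries the ferroxidase activity that oxidises iron for storage. It stood at 1092, 986 and 1021 CPM in A549, against 2176, 2458 and 2556 CPM in H23. All A549 libraries were below all H23 libraries. The log2 fold was -1.21 ± 0.09 (edgeR adjusted p = 2.36e-05), or 2.32-fold higher in H23, and it was -1.75 to -0.57 over the alternatives. The smallest of these differences came with GC and length trends removed. Reads of the ferritin genes could in principle be shared with processed copies. The table's copies FTMT, FTHL17, FTH1P18 and FTLP10 had at most 1 count over all libraries, and FTH1P3 had 18 counts over the A549 libraries and 21 over the H23 libraries. Copies outside the table were not analysed here.

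The 2 folds combine into a ratio of the chain transcripts within each library, which does not depend on scaling between libraries. FTL transcripts outnumbered FTH1 transcripts by 8.14, 9.33 and 7.61 times in A549 (TPM ratio), against 1.18, 0.957 and 0.926 times in H23. In H23 the messages of the 2 chains were thus near parity, and in A549 the light chain message prevailed in every library. The mean ratio was 8.36 ± 0.883 in A549 and 1.02 ± 0.137 in H23 (SD, n = 3 each), a log2 difference of 3.04. An exact permutation test gave a two-sided p of 0.1, the smallest that 3 libraries against 3 can give, and 0.12 when adjusted over the 6 ratios compared. Leaving out any 1 library gave 2.96 to 3.15. Both chains together took 0.994%, 1.01% and 0.927% of a library's TPM in A549, against 0.658%, 0.729% and 0.75% in H23. The summed share was higher in every A549 library, by a log2 difference of 0.46 with the same exact p of 0.1, and by 0.71 as a share of expected counts. FTL held rank 6 by TPM among all genes in each A549 library and ranks 44, 36 and 37 in H23, while FTH1 held ranks 120 to 134 in A549 and 29 to 50 in H23.

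**Figure D2:**
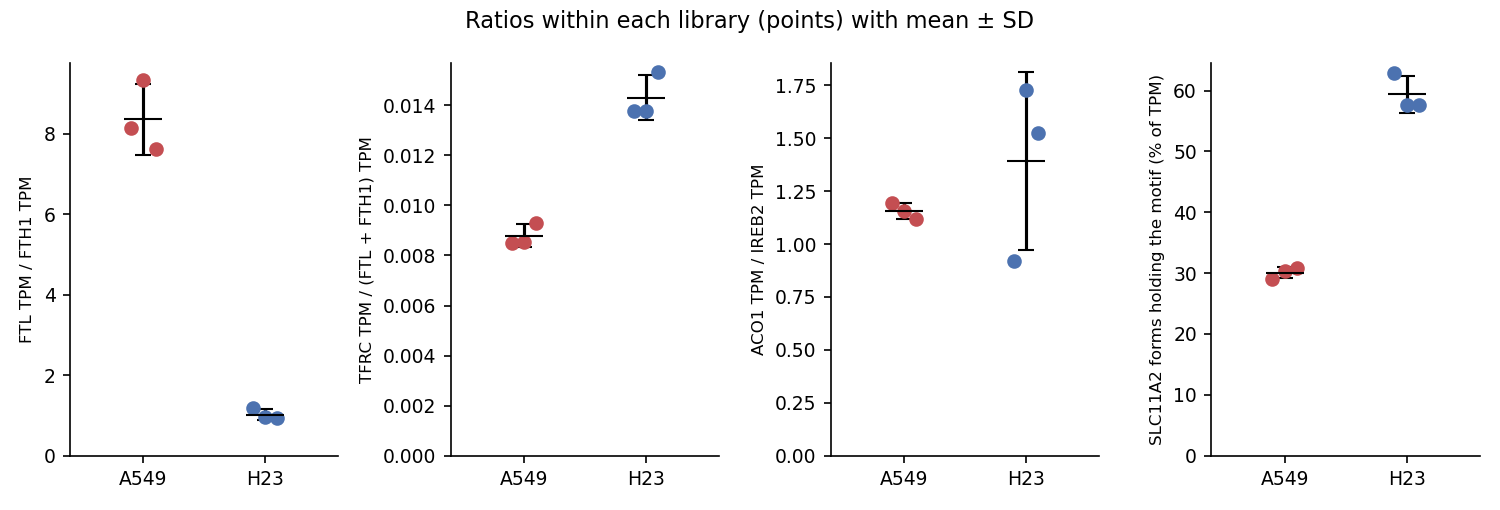
Ratios within each library for A549 (red, left) and H23 (blue, right), as points with mean and SD (n = 3). FTL to FTH1 is 7.61 to 9.33 in A549 and 0.926 to 1.18 in H23, TFRC to ferritin and the SLC11A2 share with the motif are lower in every A549 library, and ACO1 to IREB2 overlaps.

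On the uptake side, TFRC encodes transferrin receptor 1, the main entry point for transferrin-bound iron. It stood at 395, 410.0 and 382 CPM in A549, against 294, 306 and 351 CPM in H23. The A549 libraries were all higher, by a small margin. The log2 fold was 0.32 ± 0.09 (edgeR adjusted p = 0.0144). The direction turned on log2(TPM + 1), to -0.24 (limma adjusted p = 0.0554), which is 0.16 above the shifted median of all genes. It also turned with GC and length trends removed, to -0.38 (edgeR adjusted p = 0.0457), and the call was lost with upper quartile factors (0.0807), with the length trend removed (0.871) and without H23 replicate 2 (0.0523). Its adjusted p ran from 7.92e-05 to 0.871 over the alternatives.

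Set against ferritin within a library, TFRC was lower in A549. The TPM ratio of TFRC to the sum of FTL and FTH1 was 0.00849, 0.00856 and 0.00931 in A549, against 0.0138, 0.0138 and 0.0153 in H23. The lines did not overlap, and the log2 difference was -0.70 (exact permutation p = 0.1, adjusted p = 0.12). From expected counts, without a correction for length, it was -0.42 with the same exact p.

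STEAP3 encodes the endosomal reductase that turns ferric into ferrous iron after transferrin uptake. It stood at 101, 98.3 and 101 CPM in A549, against 44.5, 87.3 and 88.3 CPM in H23. H23 replicate 1 was far below the other H23 libraries, and all A549 libraries were higher than H23. The log2 fold of 0.45 ± 0.25 did not pass (edgeR adjusted p = 0.142). It passed without H23 replicate 1, at 0.18 (0.000801), and with GC and length trends removed, at 0.71 (0.00651). On log2(TPM + 1) it was -0.04 (limma adjusted p = 0.893, the range over the alternatives being 0.000801 to 0.90).

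SLC11A2 encodes DMT1, the proton-coupled transporter that moves ferrous iron out of the endosome. Its total was 72.6, 70.6 and 71.3 CPM in A549, against 57.5, 62.1 and 69.6 CPM in H23. The highest H23 library lay just under the lowest A549 library. The log2 fold of 0.18 ± 0.09 did not pass (edgeR adjusted p = 0.118). It turned to -0.16 on log2(TPM + 1) and to -0.12 with GC and length trends removed, and it passed at 0.25 without H23 replicate 3 (0.0488), in a range of adjusted p from 0.0488 to 0.62.

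The forms of SLC11A2 were also set side by side. A deposited RefSeq form was counted as holding the element if the GENCODE transcript linked to it held it and the lengths agreed within 100 bases. NM_000617, NM_001174128 and NR_033421 held it, NM_001174126, NM_001174127 and NR_033422 lacked it, and NM_001174125, NM_001174129 and NM_001174130 were left unresolved but kept in the total. Forms holding the element made up 29.02%, 30.3% and 30.8% of SLC11A2 TPM in A549, against 62.8%, 57.6% and 57.7% in H23. Every A549 library lay far below every H23 library. The log2 difference was -0.98 (exact permutation p = 0.1, adjusted p = 0.12), and the smallest difference when any 1 library was left out was -0.94. From expected counts, without a correction for length, it was -0.78 with the same exact p. This share and the ratio of coding forms below were added after the transcript values had been seen.

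Single forms also stood apart. NM_001174128, a coding form with the element, made up 13.7%, 13.9% and 14.2% of SLC11A2 transcripts in A549, against 43.7%, 33.0% and 33.2% in H23. NR_033422, a form annotated as non-coding in RefSeq, made up 34.2%, 30.6% and 29.3% in A549, against 0.34%, 12.5% and 10.3% in H23. Neither form overlapped between the lines. The GENCODE transcript linked to NR_033422 has 1704 coding bases, as has the one linked to NM_001174127, so the 2 annotations differ on it. Forms that RefSeq annotates as coding were also taken alone, which leaves out NR_033422. Among them, the ratio of forms with the element to those without was 0.817, 0.782 and 0.672 in A549. In H23 it was 1.73, 1.93 and 1.69, a log2 difference of -1.24 (exact permutation p = 0.1). The gene-level usage test over all transcripts did not pass for SLC11A2 (edgeR diffSpliceDGE adjusted p = 0.141). It passed without H23 replicate 1 (0.0356), in a range of 0.0356 to 0.561. RSEM divided reads between overlapping forms, and the error of that division is not in these tests.

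**Figure D3:**
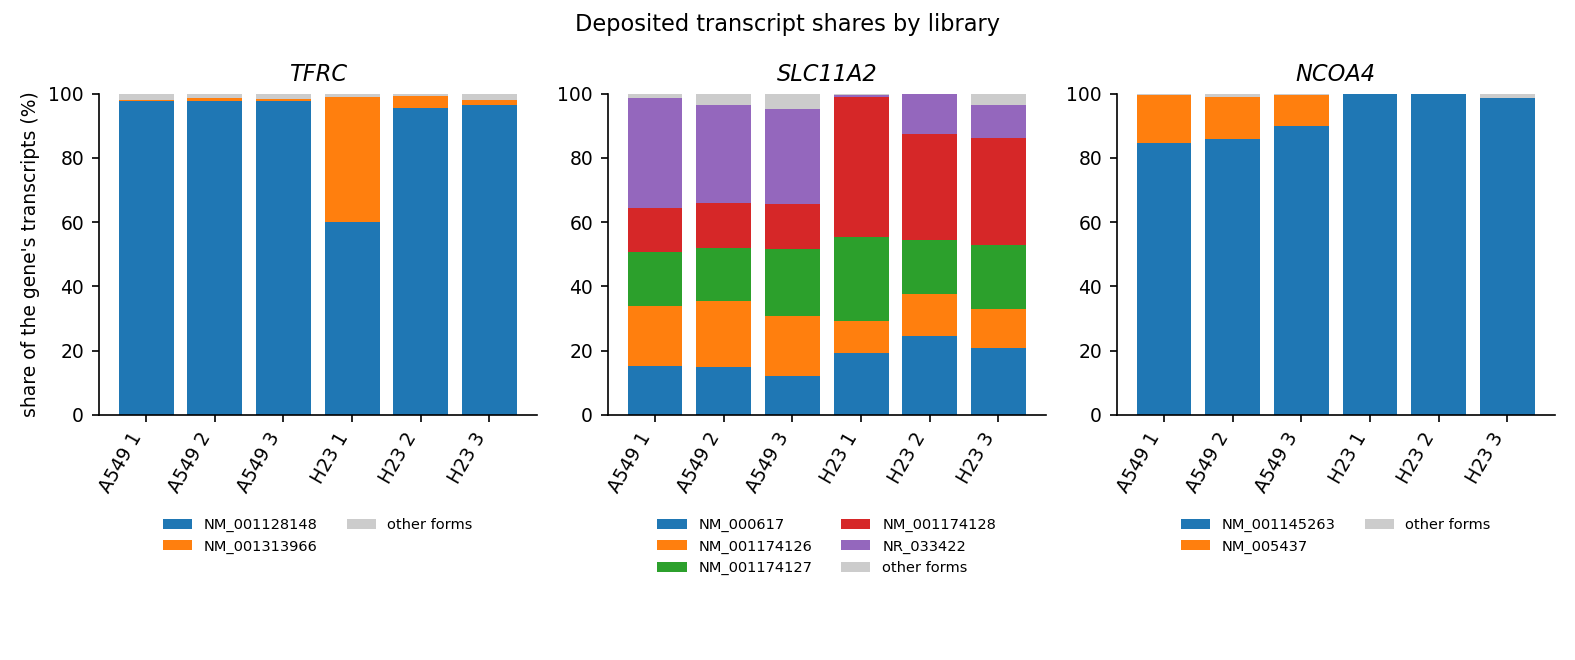
Deposited share of each gene's transcripts (percent) held by each RefSeq form of TFRC, SLC11A2 and NCOA4, in the 3 A549 and then the 3 H23 libraries, with forms below a mean of 10% in both lines pooled in grey. NR_033422 and NM_005437 take larger shares in every A549 library, and NM_001313966 of TFRC stands out in H23 replicate 1 alone.

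Among 7539 genes with more than 1 tested transcript, 25.9% passed the usage test, and of the 5 iron genes tested NCOA4 and TFRC did. For TFRC the call rested on H23 replicate 1. The form NM_001313966 made up 0.36%, 0.71% and 0.60% of TFRC transcripts in A549, against 38.7%, 3.84% and 1.67% in H23. Without H23 replicate 1 the usage adjusted p went to 0.231, where 29.8% of genes passed, compared with 0.00404 on all libraries. The call was also lost without A549 replicates 1 and 3 (0.0656 and 0.0572). The 4 TFRC sites printed above lie in all of the GENCODE transcripts linked to the TFRC forms, though those linked to NM_001313966 and NM_003234 differ from these forms in length by 129 and 192 bases.

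NCOA4 is the cargo receptor that brings ferritin to the autophagosome, the route by which stored iron is released. It stood at 259, 264 and 264 CPM in A549, against 68.4, 74.9 and 81.6 CPM in H23. The A549 libraries had a coefficient of variation of 0.997% and lay far above H23. The log2 fold was 1.81 ± 0.09 (edgeR adjusted p = 3.67e-06), and it was 1.24 to 1.87 over the alternatives. A second form appeared in A549, as NM_005437 made up 14.9%, 13.1% and 9.39% of NCOA4 transcripts there, against 0.11%, 0% and 0% in H23. That form carried 913, 851 and 566 counts in A549, against 2.70, 0 and 0 in H23. The usage test passed (edgeR diffSpliceDGE adjusted p = 4.63e-05) under every alternative run, with a highest adjusted p of 0.00585. The GENCODE transcripts linked to NM_005437 and to the main form NM_001145263 are 3489 and 3549 bases long and each have 1842 coding bases. An exact match counted inward from each end found no shared bases. A small offset of an end would give the same, so where the forms differ is not shown.

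Export depends on SLC40A1, which encodes ferroportin, the only known exporter of iron from mammalian cells. It had the largest fold of the 10 genes and the lowest level in both lines. SLC40A1 stood at 27.5, 28.4 and 27.4 CPM in A549, against 3.22, 4.01 and 4.05 CPM in H23. H23 replicate 1 was the lowest library, and the lines were well separated. The difference was 7.38-fold, a log2 fold of 2.88 ± 0.12 (edgeR adjusted p = 2.08e-06), and it stayed between 1.86 and 2.94 over the alternatives. The form counted is the single RefSeq form in the table, NM_014585, which is linked to a transcript with the 5′ element.

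Transcripts of both iron regulatory proteins were higher in A549. ACO1 encodes IRP1, which acts as cytosolic aconitase when it holds an iron-sulphur cluster. It stood at 76.9, 76.3 and 73.7 CPM in A549, against 19.8, 22.4 and 22.4 CPM in H23. The separation was wide beside the spread within lines. The log2 fold was 1.81 ± 0.09 (edgeR adjusted p = 3.53e-06), with 1.18 to 1.86 over the alternatives.

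IREB2 encodes IRP2, which carries no cluster and is degraded when iron is plentiful. It stood at 115, 118 and 115 CPM in A549, against 36.0, 23.7 and 25.6 CPM in H23. H23 replicate 1 was the highest H23 library, as for FTL and unlike the other 8 genes. The log2 fold was 2.03 ± 0.17 (edgeR adjusted p = 3.65e-05). It was 2.23 without H23 replicate 1 and 0.88 with GC and length trends removed, the lowest of its alternatives. The TPM ratio of ACO1 to IREB2 was 1.19, 1.16 and 1.12 in A549, against 0.922, 1.73 and 1.52 in H23. These ranges overlapped, and the log2 difference of -0.22 had an exact permutation p of 0.4 (adjusted p = 0.4). The overlap came from H23 replicate 1, at 0.922. Without that library the lines did not overlap, and the log2 difference was -0.49 (exact permutation p = 0.1).

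HMOX1 encodes heme oxygenase 1, the inducible enzyme that frees iron from heme. It stood at 167, 179 and 186 CPM in A549, against 76.4, 113 and 114 CPM in H23. H23 replicate 1 was again apart and low. The log2 fold was 0.81 ± 0.16 (edgeR adjusted p = 0.00295), and 0.64 without that library. On log2(TPM + 1) it was 0.29 and did not pass (limma adjusted p = 0.21, the highest of its alternatives, the lowest being 3.43e-12).

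**Figure D4:**
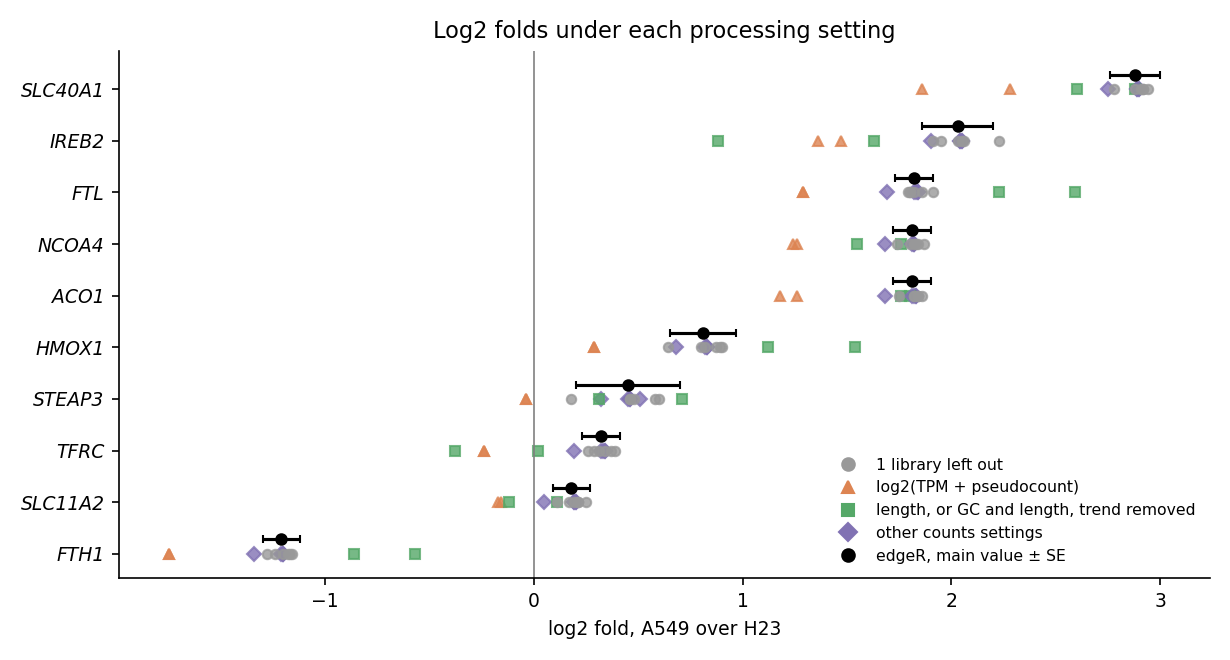
Log2 fold of A549 over H23 for the 10 genes, with the main edgeR value and its approximate SE in black and each alternative setting as a coloured marker. FTL, NCOA4, ACO1, IREB2, SLC40A1, HMOX1 and FTH1 keep their side of 0 under every setting drawn. TFRC, SLC11A2 and STEAP3 lie on both sides.

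Levels per length, in TPM, gave the order of the genes within a line. In A549 the order was FTL at 8727, FTH1 at 1048, HMOX1 at 134, TFRC at 85.8, NCOA4 at 82.9, STEAP3 at 28.1, ACO1 at 23.9, SLC11A2 at 23.5, IREB2 at 20.6 and SLC40A1 at 9.29 TPM. TFRC overlapped with NCOA4 there, and ACO1 with SLC11A2. In H23 the order was FTL at 3575, FTH1 at 3547, HMOX1 at 112, TFRC at 102, NCOA4 at 34.7, STEAP3 at 30.7, SLC11A2 at 26.6, ACO1 at 9.98, IREB2 at 7.503 and SLC40A1 at 1.85 TPM. There FTL overlapped with FTH1, HMOX1 with TFRC, NCOA4 with STEAP3 and SLC11A2, and ACO1 with IREB2. TPM levels and ranks set side by side between lines, as for the ferritin share, carry the limit that the 10 most abundant genes, led by short structural RNAs in A549, took 34.0% to 36.6% of TPM in A549 and 10.95% to 11.4% in H23. Ribosomal RNA genes were among them. RNA5-8SN4 held ranks 1, 2 and 3 by TPM in A549 replicates 1, 2 and 3, and RNR2 held ranks 1, 4 and 4 in H23 replicates 1, 2 and 3.

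The spread within a line also differed between the genes. In A549 the coefficient of variation of CPM was highest for FTL, at 8.58%, and at most 5.28% for the others. In H23 it was 34.1% for STEAP3, 23.3% for IREB2 and 21.1% for HMOX1, and lowest for FTL, at 4.67%. For these 3 genes H23 replicate 1 was the library farthest from the other H23 libraries.

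By the root mean square difference of centred log2 CPM over the 6 libraries, among 4923 other genes at a mean of 20 TPM or more, the patterns closest to FTL were those of PTGR1, WASHC5 and CAV1 (0.0613, 0.0683 and 0.0688). Closest to FTH1 were ZDHHC18, KCTD20 and OAZ2 (0.0325, 0.0363 and 0.0454), and closest to TFRC were COMMD7, GLE1 and CDYL (0.031, 0.0325 and 0.0398). With 2 lines, such likeness rests mainly on the size of 1 difference.

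Other genes of iron handling went both ways. Of 91 listed genes, 76 were tested, and 25 were higher and 27 lower in A549, 68.4% called against 77.2% of all genes, with a median log2 fold of 0.08. On log2(TPM + 1) the split was 13 higher and 42 lower, and without H23 replicate 1 it was 39 higher and 30 lower, where 88.6% of all genes passed. Leaving out that library thus raised the number called from 52 to 69. The counts of the single lists below are from all libraries, so genes counted there as not passing may pass without it.

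Of 8 tested genes of iron chaperones, storage and turnover, 4 were lower in A549, all of the PCBP family, 1 was higher and 3 did not pass, which is 62.5% called against 77.2% of all genes. PCBP1 and PCBP2, RNA-binding proteins that deliver iron to ferritin, averaged 87.0 ± 2.16 and 117 ± 6.98 CPM in A549, against 525 ± 41.4 and 725 ± 60.2 CPM in H23 (SD, n = 3 each, log2 -2.59 ± 0.09 and -2.63 ± 0.10, edgeR adjusted p = 8.75e-07 and 1.20e-06). Their relatives PCBP4 and PCBP3 were also lower, with log2 folds of -2.32 and -7.54, the second on 5 counts in A549 and 1503 in H23. FBXL5, the iron-sensing ligase subunit that marks IRP2 for degradation, was higher, at 65.4 ± 2.01 CPM in A549, against 20.1 ± 3.56 CPM in H23 (log2 1.70 ± 0.14). The median log2 fold of the list was -1.20, against -0.03 for all genes.

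Among 9 tested genes of uptake and reduction, 3 were higher and 3 lower in A549, 66.7% called against 77.2% of all genes. The ferric reductase genes STEAP2 and CYBRD1 were higher, with log2 folds of 3.01 ± 0.28 and 2.79 ± 0.14. TFR2, the second transferrin receptor, was lower, at 2.20 ± 0.529 CPM in A549, against 19.7 ± 2.83 CPM in H23 (log2 -3.17 ± 0.20). MCOLN1, a lysosomal channel, and SLC22A17, a lipocalin receptor, were lower as well, at -1.71 and -1.31. Transferrin itself, TF, was under the filter in both lines. In the export list 3 of 8 genes were tested, and 1 was higher and 1 lower, 66.7% called against 77.2% of all genes. CP, a ferroxidase that works with ferroportin, had 333 counts over the A549 libraries and 4 over the H23 libraries, and is named here because of those values.

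Of 12 tested genes of heme synthesis, 2 were higher and 6 lower in A549, 66.7% called against 77.2% of all genes, with a median log2 fold of -0.47. The enzymes UROD, ALAD and ALAS1 were lower, with log2 folds of -1.39, -0.89 and -0.83, while UROS and the mitochondrial transporter ABCB10 were higher, at 1.12 and 1.92. Of 11 tested genes of heme breakdown and transport, 8 were higher and 1 lower, with a median of 0.76. The 81.8% called in that list is close to the background of 77.2%, of which 37.6% were higher in A549 and 39.6% lower. BLVRB, a biliverdin reductase, averaged 140.2 ± 3.83 CPM in A549, against 43.2 ± 1.78 CPM in H23 (log2 1.70 ± 0.08, edgeR adjusted p = 2.67e-06). BACH1, the heme-binding repressor of HMOX1, was higher too, with a log2 fold of 2.24 ± 0.27, as were ABCG2 and FLVCR1 at 1.10 and 0.88. HEBP1, a heme-binding protein, was the gene that was lower, at -2.36 ± 0.12. With GC and length trends removed, ABCG2 no longer passed (edgeR adjusted p = 0.0621, the highest of its alternatives, the lowest being 4.80e-14).

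**Figure D5:**
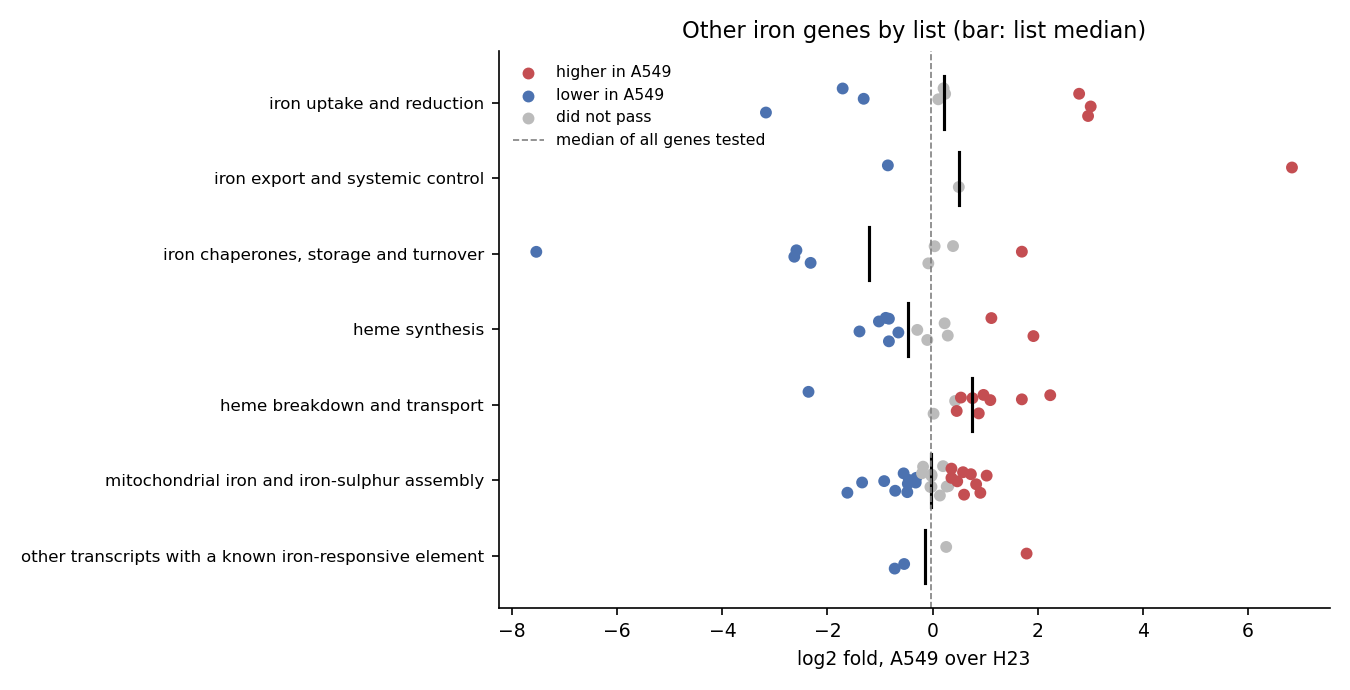
Log2 folds of A549 over H23 for the tested genes of 7 lists of iron handling, in red where higher in A549, blue where lower and grey where the test did not pass, with a bar at each list's median and a dashed line at the median of all genes tested (-0.03). The bar of chaperones, storage and turnover is at -1.20 and that of heme breakdown and transport at 0.76, and every list but the ferritin copies, of which none was tested, holds genes on both sides.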

How the data were processed

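Each library came with gene and transcript tables in RSEM's layout, per the file headers. The submitters' processing notes name STAR 2.6.0c, RSEM 1.3.0 and hg19. Options, strand setting and annotation release are not given in the sources used here. Expected counts as deposited estimate reads per gene and are not scaled to depth. The deposited TPM values are scaled by the authors for length and to a fixed sum. The deposited FPKM values were not used. Percent values, as deposited, are the share of a gene held by a transcript, and the deposited lengths served for trends.

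Expected counts were rounded and tested with edgeR 4.0.16 in R 4.3.3 (filterByExpr, TMM, robust quasi-likelihood F test, Benjamini-Hochberg over 15426 genes). Each approximate SE was taken as the size of the log2 fold divided by the root of F. Transcript usage was tested with diffSpliceDGE on 24779 transcripts of 7539 genes. Both were tested on simulated data, where the usage test made more false calls than its threshold allows. Ratios were tested by exact permutation over libraries. Limma 3.58.1 and DESeq2 1.42.0 served for alternatives. For GC trends, 96.2% of tested genes had a value.

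Named genes were the 10 members, up to 4 per direction and list by log2 fold with at least 5 TPM in the higher line, ferritin copies, and transcripts at 10% or more. Any other gene was named after its values were seen, and some genes that met the rule are not reported here. Members and lists were chosen with earlier results of these data known. Sequences come from GENCODE, whose build differs from the tables', so coordinates are GRCh38. No label ties cultures of the lines to each other.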

Additional observations from a re-analysis of the deposited data

How the results depend on the processing

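Of the 10 iron handling genes, 6 kept their direction and their side of the threshold under all 15 alternatives, namely FTL, FTH1, SLC40A1, ACO1, IREB2 and NCOA4. The number called was 6 to 9 over the alternatives, 9 without H23 replicate 1. With GC and length trends removed, a setting added after seeing the data, 2 were lower in A549 in place of 1, as TFRC fell to -0.38. TFRC also reversed on log2(TPM + 1) and log2(TPM + 0.1), at -0.24 in both. SLC11A2 reversed to -0.16, -0.17 and -0.12 under the 2 TPM scales and the GC and length setting, and STEAP3 to -0.04 on both TPM scales. On log2(TPM + 1) the median of all genes was -0.41, and SLC11A2, STEAP3 and HMOX1 lay 0.24, 0.36 and 0.69 above it. With GC and length trends removed that median was 0.00. The cause was not tested. On log2(TPM + 0.1), 3862 genes in all were higher in A549, compared with 5801. Other iron genes higher in A549 numbered 25, then 13 on both TPM scales and 23 to 39 when any 1 library was left out, while those lower numbered 27, then 42 on both TPM scales. Usage calls among the 10 genes numbered 2, then 1 with the replicate block, where TFRC had an adjusted p of 0.153, and 1 to 2 when any 1 library was left out. Same-numbered cultures were not paired, with correlations of their deviations of 0.0158, -0.03 and 0.039, and the block kept 8 of the 10 genes called and 11691 genes in all. All ratios kept their direction. Each of the 10 genes had at least 120 counts in a library, and 3 counts were worth 0.0706 to 0.129 CPM, counting error only.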

Other observations

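Genes of mitochondrial iron import and iron-sulphur cluster assembly showed no common direction. Of 29 tested, 9 were higher in A549 and 10 lower, 65.5% called against 77.2% of all genes, with a median log2 fold of -0.02. NFS1, the cysteine desulfurase that supplies sulphur, averaged 38.1 ± 2.33 CPM in A549, against 117 ± 0.929 CPM in H23 (SD, n = 3 each, log2 -1.62 ± 0.08, edgeR adjusted p = 3.99e-06), and CIAO1, of the cytosolic assembly complex, had a log2 fold of -1.34 ± 0.07. NUBP1 and NARFL, also of the cytosolic pathway, were higher in A549, at 1.03 ± 0.09 and 0.91 ± 0.15. On log2(TPM + 1) NARFL was at 0.36 and no longer passed (limma adjusted p = 0.0946, the highest of its alternatives, the lowest being 5.38e-11). For the scaffold gene ISCU the log2 fold was -0.04, which missed the threshold (edgeR adjusted p = 0.816).

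Among further genes known for an iron-responsive element in their transcripts, CDC42BPA, a kinase of cell shape, was higher (log2 fold 1.79 ± 0.18), CDC14A was lower in A549 at -0.72, and EPAS1 at 0.26 did not pass (edgeR adjusted p = 0.116).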
